A study of Allium mongolicum with 12 samples.

Results

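A group of 130 root transcripts of Allium mongolicum, a wild onion of dry steppe, stood higher after 24 h in a saline-alkali solution than at any other time sampled, and lay back near the control level at 48 h and 72 h. They were chosen from 98328 assembled features by their measured values, with CPM as a feature's estimated count per 1000000 counts of its library. A member had group means of at least 1 CPM in control, 48 h and 72 h roots, and all 3 24 h libraries above the 9 others. Its 24 h mean was at least 1.5 times the highest other group mean, and its 48 h and 72 h means were within 1.5-fold of the control mean. The shape of the time course is therefore what selected these features, and their rise and return are given below as a description. The limit of 200 members was not reached.

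CK stands for control roots at 0 h, T24 for roots after 24 h of exposure, T48 for 48 h and T72 for 72 h. Each group has 3 libraries. All seedlings were raised in the same way and stood in diluted Hoagland nutrient solution before exposure. The solution held 1 part NaCl, 9 parts Na2SO4, 9 parts NaHCO3 and 1 part Na2CO3, at a total salinity of 150 mmol/L. Roots came from 20 seedlings per group, and the labels do not tell how these were shared among libraries, so the spread between libraries may be technical. Unexposed roots harvested at 24, 48 or 72 h are not among the samples, so time in the solution and elapsed time cannot be told apart.

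Saline-alkali soils combine sodium toxicity and low water potential with a high pH that hinders uptake of iron, phosphate and other nutrients. In roots of well-studied plants, such stress is known to be met first by signalling and osmotic responses, many of them short-lived, and later by slower changes in ion transport, cell walls and metabolism. The table gives assembly IDs and no gene names or sequences, so the transcripts cannot be placed in a pathway here, and the root label could not be compared with root marker genes. In whole roots, more RNA per cell and more cells of a type cannot be told apart.

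The deposited values were estimated counts, with library totals from 23099287 to 26388120, at which 3 counts correspond to 0.114 to 0.13 CPM. The floor covers counting error only. The 24 h libraries were far more alike than those of the other groups. Over the 33005 features with CK, T48 and T72 means of at least 1 CPM, the median coefficient of variation among 3 libraries was 25.8% in CK, 9.40% in T24, 27.0% in T48 and 18.7% in T72.

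The first member by rank, TRINITY_DN40975_c0_g1_i5_1, had the largest ratio of T24 mean plus 1 to highest other mean plus 1. Its level was 4.43, 1.93 and 2.09 CPM in CK, then 20.5, 21.1 and 20.4 CPM in T24. It was 2.73, 3.51 and 2.03 CPM in T48, and 0.876, 4.19 and 1.52 CPM in T72. The T24 values lay close together and well clear of the rest, the lowest T24 library being 4.60 times the highest other library, while CK, T48 and T72 libraries overlapped. The T24 mean was 20.7 ± 0.414 CPM against a CK mean of 2.82 ± 1.40 CPM (SD, n = 3 each), a ratio of 7.33. The T48 mean was 0.977 times and the T72 mean 0.778 times the CK mean.

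The most abundant member at 24 h, TRINITY_DN31855_c0_g1_i2_3, showed a shallower peak on a high and uneven base. It had 414.6, 497.5 and 189.0 CPM in CK and 641.7, 712.4 and 691.7 CPM in T24. In T48 it had 289.1, 389.7 and 295.4 CPM, and in T72 569.5, 279.1 and 391.0 CPM. CK replicate 3 was the lowest of the 12 libraries and T72 replicate 1 came nearest to the T24 libraries, the lowest of which exceeded it by a factor of 1.13. The T24 mean was 682 ± 36.3 CPM against a CK mean of 367 ± 160 CPM (SD, n = 3 each), a ratio of 1.86. The fitted log2 change was 0.76, and it was 0.44 without CK replicate 3 and 1.04 without CK replicate 2.

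The next 4 members by rank were faint outside 24 h. Rank 2 had 4.36, 0.808 and 0.670 CPM in CK, 12.96, 14.88 and 11.67 CPM in T24, 0, 4.64 and 0 CPM in T48 and 1.01, 0.416 and 4.87 CPM in T72. A single library supplied most of the CK, T48 and T72 level of this feature, so its return to the control mean rested on 1 library per group. Rank 3 had 5.11, 3.39 and 1.09 CPM in CK, 22.1, 16.2 and 17.2 CPM in T24, 2.35, 5.10 and 1.96 CPM in T48 and 4.50, 4.05 and 3.79 CPM in T72. Its T72 libraries were the most even of the returned values. Rank 4 had a T24 mean of 8.35 ± 1.18 CPM and a CK mean of 1.47 ± 1.53 CPM, and rank 5 had a T24 mean of 8.78 ± 0.510 CPM and a CK mean of 1.87 ± 1.24 CPM (SD, n = 3 each). In both, CK replicate 3 was the lowest CK library, at 0.235 CPM for rank 4 and 0.737 CPM for rank 5.

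**Figure D1:**
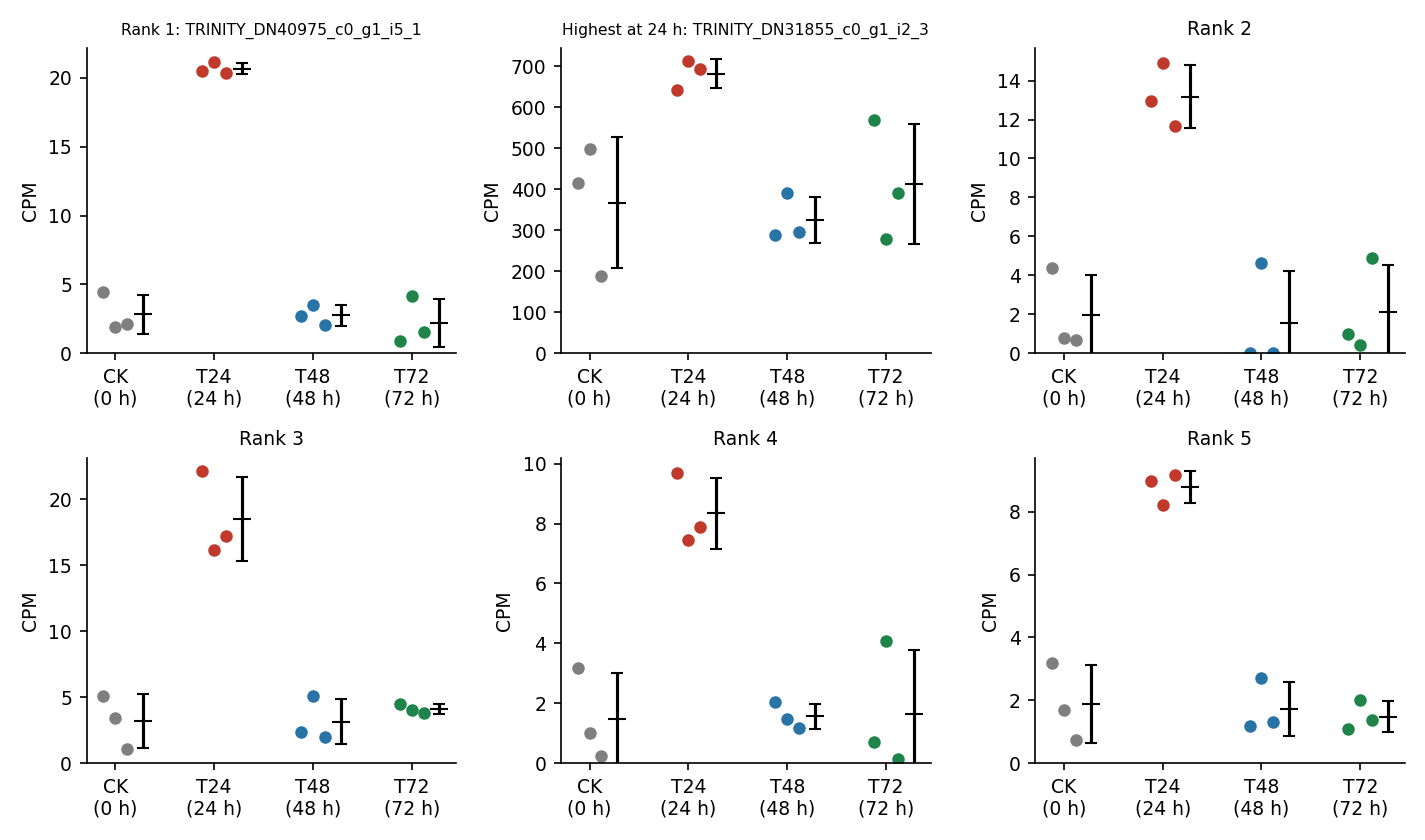
Level in CPM (vertical axis, linear) of 6 members in each library, by group and time of exposure (horizontal axis). Points are libraries in order of replicate number, and the black marks give mean and SD (n = 3), with bars below 0 not drawn. In TRINITY_DN40975_c0_g1_i5_1 the T24 libraries sit between 20.4 and 21.1 CPM and no other library exceeds 4.43 CPM.

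Among all 130 members the T24 mean was 1.51 to 7.33 times the CK mean, with a median of 2.29. It was at least 2 times the CK mean in 84 members and at least 3 times in 32. Against the highest other group mean, the ratio had a median of 1.86 and reached 2 in 50 members and 3 in 24. The gap between single libraries was narrower, since the lowest T24 library exceeded the highest of the 9 others by a median factor of 1.24 and by at most 4.60. The T48 mean was a median of 0.464 times the T24 mean, and the T72 mean also 0.464 times. Values at the limits ran on without a break, from 1.5002 just inside to 1.499 just outside the ratio limit, and from 1.0035 to 0.99936 for lowest T24 over highest other library. For the largest fold between CK and a later mean they were 1.4942 inside and 1.5014 outside, and for the lowest group mean 1.0071 and 0.99917 CPM.

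The members' libraries, each divided by the CK mean of the feature, had medians of 1.12, 1.05 and 0.695 in CK and 2.22, 2.27 and 2.29 in T24. The medians were 0.943, 1.06 and 0.985 in T48 and 0.930, 0.995 and 1.09 in T72. CK replicate 3 stood below the other controls. It was the lowest CK library in 80 of 130 members (61.5%), against 35.3% of the 33005 features of at least 1 CPM, whose median ratio in that library was 0.985. Set against CK replicates 1 and 2 alone, the members' T24 mean had a median ratio of 2.11, and set against CK replicate 3 alone a median ratio of 3.04. T48 replicate 2 had the highest median of the 48 h libraries and the highest upper quartile, at 1.46 against 1.37 and 1.30. It was the highest 48 h library in 51 members (39.2%), against 30.8% of the features of at least 1 CPM. It was the lowest in 43 members (33.1%), against 44.0% of those features. Without T48 replicate 2, 42 members were lost. Of these, 25 failed the limit on return, 21 the ratio limit and 11 the floor of 1 CPM, and a member could fail several. With CK replicate 3 left out, 87 of the 130 members still met the rule. Leaving out CK replicate 1 kept 77 and leaving out CK replicate 2 kept 89. The losses differed in kind. Without CK replicate 3, 15 members failed the ratio limit and 32 the limit on return. These counts were 2 and 50 without CK replicate 1, and 3 and 38 without CK replicate 2.

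**Figure D2:**
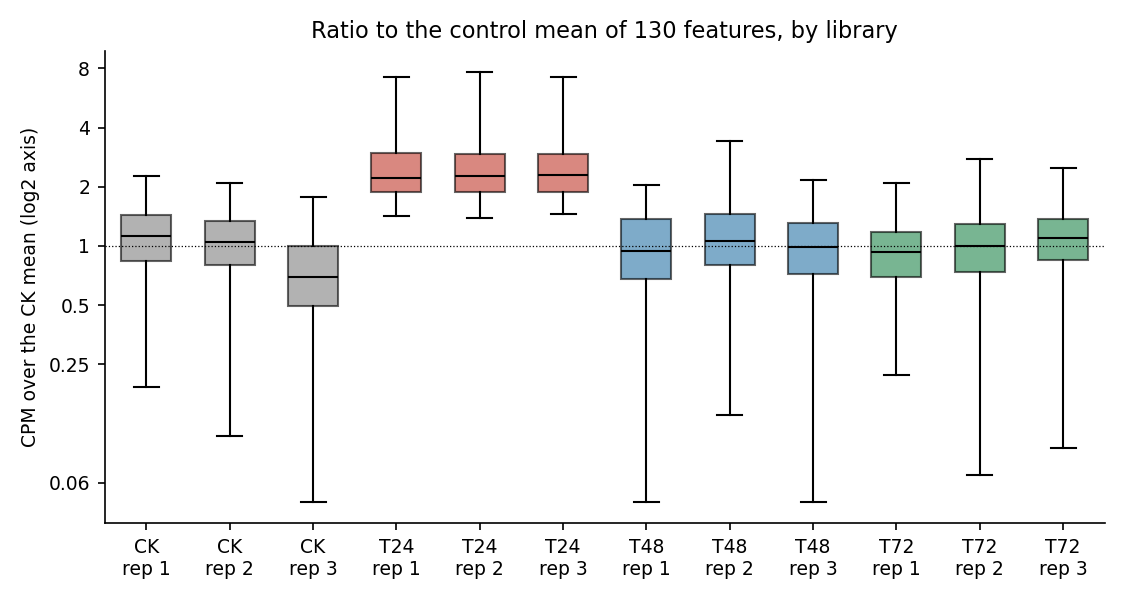
CPM of each member divided by its CK mean (vertical axis, log2) in each of the 12 libraries (horizontal axis). Boxes span the quartiles with the median as a line, whiskers reach the lowest and highest member, and ratios of 0, found in 2 members, are drawn at 0.05. The 3 T24 medians lie between 2.22 and 2.29 and CK replicate 3 has the lowest median, at 0.695.

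Summed over the members, expression took 0.213 ± 0.0553% of the library in CK, 0.459 ± 0.00473% in T24, 0.212 ± 0.0148% in T48 and 0.214 ± 0.0135% in T72 (SD, n = 3 each). In CPM the sum was 2535, 2364 and 1504 in CK and 4539, 4609 and 4629 in T24. It was 2079, 1990 and 2279 in T48 and 2028, 2093 and 2287 in T72. The groups T24 and the rest did not overlap, which the choice of members fixed. The 5 members highest at 24 h made up 52.7% of the T24 sum. Without them the sums averaged 961 ± 176 CPM in CK, 2171 ± 23.2 CPM in T24, 1027 ± 54.7 CPM in T48 and 957 ± 175 CPM in T72 (SD, n = 3 each). The T24 sum was again the highest, which the choice of members fixed here too.

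**Figure D3:**
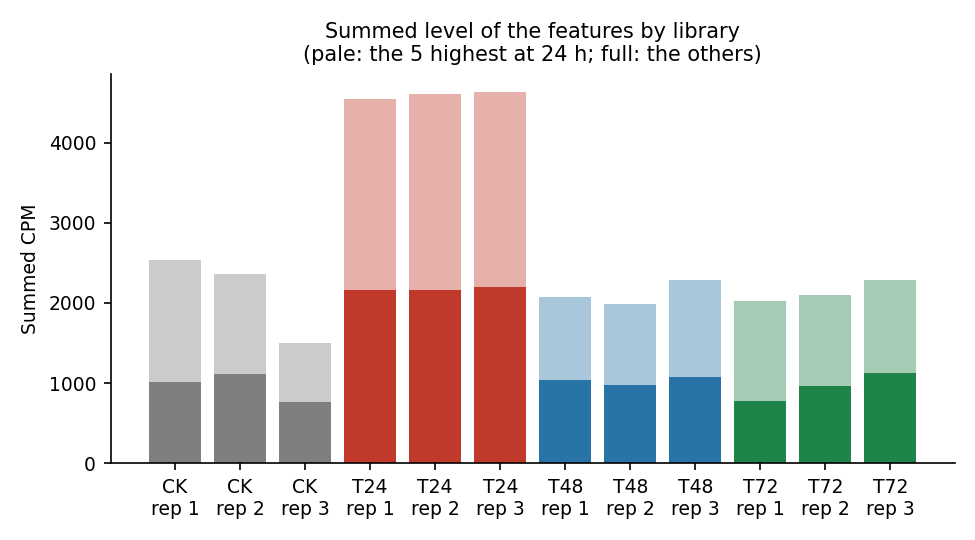
Summed CPM of the members (vertical axis, linear from 0) in each library (horizontal axis). The pale part of each bar is the 5 members with the highest T24 mean and the full part is the other members. The T24 libraries reach 4539 to 4629 CPM and no other library exceeds 2535 CPM.

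Most members were of low or middle abundance. The T24 mean lay under 5 CPM in 31 members, from 5 to 20 CPM in 71, from 20 to 100 CPM in 18 and at 100 CPM or more in 10. The median T24 over CK ratio was 2.14, 2.44, 2.02 and 1.99 in these 4 classes, from the faintest to the most abundant. The median T24 mean, 8.16 CPM, equalled that of the 33005 features of at least 1 CPM to the digits given (8.16 CPM). Outside 24 h the members were fainter than those features, with a median CK mean of 2.84 CPM against 7.57 CPM.

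The libraries of CK, T48 and T72 varied more in the members than in the features of at least 1 CPM. The median coefficient of variation in the members was 46.5% in CK, 9.13% in T24, 35.6% in T48 and 32.7% in T72. Fainter features vary more from counting alone, and how much of this spread goes with their lower level was not tested. The highest CK library was at least 2 times the lowest in 89 members (68.5%), against 37.0% of the features of at least 1 CPM. In T24 this was so for 0 members, against 7.86%. The rule asked that every T24 library exceed the 9 others, which bears on this T24 share, so nothing is read from it. In 21 members (16.2%) all 6 libraries of T48 and T72 lay within 1.5-fold of the CK mean, against 24.0% of the features of at least 1 CPM. All 3 CK libraries did so in 44 members (33.8%), against 63.1% of those features. The T48 libraries all lay inside the range of the CK libraries in 39 members (30.0%, against 15.9% of those features) and the T72 libraries in 52 (40.0%, against 18.5%). The rule on the means and the wider CK range both bear on these shares.

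The sides on which members returned were mixed. Both later means lay above the CK mean in 44 members (33.8%), against 43.1% of the features of at least 1 CPM. Both lay below in 26 (20%, against 27.5%). In 32 members (24.6%, against 13.3%) T48 was above and T72 below the CK mean. The order was the opposite in 28 (21.5%, against 16.2%). The rule held the members' later means within 1.5-fold of the CK mean, which bears on these shares. The median of T48 over CK was 1.06 and that of T72 over CK was 1.03.

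The members were tested one by one among 76273 features, and as the rule used these contrasts nothing is read from the counts. Higher at T24 than in CK were 14 of 130 members (10.8%), where 2.62% of all features tested were called in this direction (edgeR's quasi-likelihood test, adjusted p below 0.05 after Benjamini and Hochberg). The 14 included TRINITY_DN40975_c0_g1_i5_1 but not TRINITY_DN31855_c0_g1_i2_3, and 2 of ranks 1 to 5. Over all 130 members the median log2 change was 1.06, with a range from 0.46 to 2.74, against a median of 0.08 over all features. The medians that follow are also over all 130 members. Lower at T48 than at T24 were 9 members (6.92%), beside 1.5% of all features, with a median log2 change of -1.05. Lower at T72 than at T24 were 8 members (6.15%), beside 1.03% of all features, with a median log2 change of -1.10. The comparisons share the T24 libraries. DESeq2 called 38, 38 and 44 members in these comparisons, beside 5.89%, 4.22% and 3.21% of all features.

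The F test over the 4 times called 20 members (15.4%), beside 8.14% of all features. Against CK, 0 members were called at T48, beside 0.691% of all features, and 0 at T72, beside 4.74% (edgeR). At an unadjusted p below 0.05 there was 1 member in each of these, and DESeq2 called 0 in both, beside 6.46% of all features at T48 and 12.1% at T72. A missing call does not show that a level is equal to the control. Scaling by totals only placed the median log2 change of all features, T24 against CK, at 0.21, in place of 0.08 with TMM factors.

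In 4 members all 3 comparisons passed, higher at T24 than in CK and lower at both T48 and T72 than at T24, beside 0.834% of all features. These were chosen after their values were seen, and are ranks 1, 9, 16 and 32. Rank 9 had 1.73, 2.02 and 2.66 CPM in CK, 8.07, 7.37 and 8.39 CPM in T24, 1.498, 1.811 and 1.593 CPM in T48 and 1.66, 1.71 and 2.06 CPM in T72. Rank 16 had 1.38, 1.63 and 2.32 CPM in CK, 6.18, 7.22 and 6.83 CPM in T24, 1.52, 1.82 and 2.33 CPM in T48 and 2.15, 1.73 and 1.10 CPM in T72. Outside 24 h both lay between 1.10 and 2.66 CPM in all 9 libraries, and their T24 mean was 3.72 times the CK mean for rank 9 and 3.80 times for rank 16. Rank 32 was more abundant, with 22.2, 41.6 and 45.0 CPM in CK, 82.5, 83.7 and 96.9 CPM in T24, 43.2, 37.8 and 42.6 CPM in T48 and 23.2, 29.9 and 23.6 CPM in T72. Its T72 mean was 0.705 times the CK mean, near the limit of the rule.

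The counts of calls moved with single libraries, and the share over all features moved as well, so nothing is read from them about the members. The 14 members higher at T24 than in CK became 0 without T24 replicate 1, 2 or 3, beside 0.304%, 0.308% and 0.359% of all features (edgeR, with 58, 55 and 55 members at an unadjusted p below 0.05). They became 22 without T48 replicate 2, beside 3.6% of all features, 7 without CK replicate 2, beside 1.82%, and 5 without CK replicate 3, beside 1.09%. The 9 members lower at T48 than at T24 became 2 without any 1 T24 library (0.234% to 0.298% of all features), 3 without T48 replicate 1 (0.764%) and 4 without T48 replicate 3 (0.899%). They became 14 without T48 replicate 2 (1.31%) and 15 without CK replicate 3 (1.64%). The 8 lower at T72 than at T24 became 2 without any 1 T24 library (0.165% to 0.216% of all features) or without T72 replicate 1 (0.387%). The 20 of the F test became 5 to 6 without a T24 library (2.44% to 2.54%), 13 without T72 replicate 1 (4.1%) and 31 without T48 replicate 2 (10.7%). The 4 members called in all 3 comparisons became 0 without any 1 T24 library (0.139% to 0.189%). They became 1 without T48 replicate 1 (0.522%), T72 replicate 1 (0.362%) or T72 replicate 3 (0.431%), and 2 without T48 replicate 3 (0.575%) or T72 replicate 2 (0.4%).

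Membership itself depended on single libraries. In a step chosen after seeing the data, the rule was applied without each of the 12 libraries in turn, and 15 of the 130 members (11.5%) met it every time. Of the others, 99 failed the limit on return to control, 50 the ratio limit and 29 the floor of 1 CPM at least once. A member could fail several of these. Leaving out a T24 library lost 6 to 8 members, whereas leaving out CK replicate 1 lost 53 and CK replicate 2, CK replicate 3, T48 replicate 2 and T72 replicate 3 lost 41 to 43 each. The floor and the limit on return do not use the T24 libraries. Without a T24 library a member could therefore fail only the ratio limit, so this contrast is partly set by the rule. The first-ranked member failed the rule without T72 replicate 2 alone, where its T72 mean was 0.424 times the CK mean.

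The 15 steadier members had T24 means of 1.69 to 3.80 times the CK mean, with a median of 1.96, and 2 of them reached 100 CPM at 24 h. The more abundant, rank 39, had 66.2, 104.1 and 55.6 CPM in CK, 180.8, 172.2 and 175.2 CPM in T24, 81.1, 79.6 and 107.6 CPM in T48 and 61.1, 78.8 and 112.7 CPM in T72. The other, rank 68, had 67.3, 92.1 and 71.3 CPM in CK, 138.1, 152.7 and 154.8 CPM in T24, 55.1, 61.7 and 74.4 CPM in T48 and 77.5, 101.1 and 88.1 CPM in T72. In both, all T24 libraries stood above the other 9, as the rule required. The CK, T48 and T72 libraries overlapped in rank 39, whereas in rank 68 every T72 library lay above every T48 library. Of the 15, 4 were called higher at T24 than in CK, beside 2.62% of all features (edgeR, adjusted p below 0.05). The rule used this contrast, so nothing is read from the count.

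**Figure D4:**
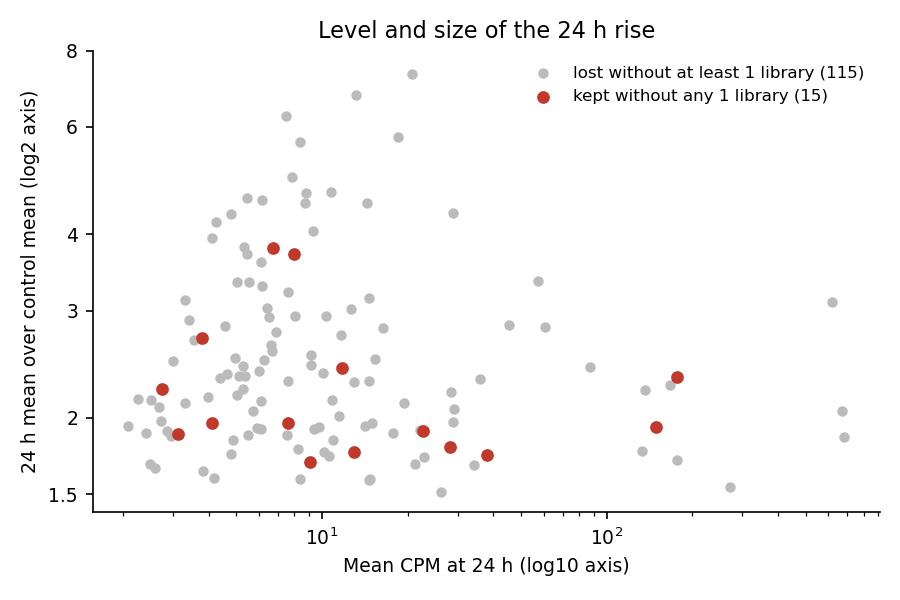
T24 mean over CK mean (vertical axis, log2) against the T24 mean in CPM (horizontal axis, log10) for each member. Red points are the 15 members that met the rule without any 1 of the 12 libraries and grey points are the other 115. The red points spread from 1.69 to 3.80 on the vertical axis and over most of the range of levels.

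The members differed from the other features in the last number of their IDs. Each ID ends in a suffix from 1 to 4, whose meaning the table does not state. Suffix 1 was carried by 70 of the 130 members (53.8%), against 26.9% of the 33005 features of at least 1 CPM. Suffix 2 was carried by 26 members, suffix 3 by 14 and suffix 4 by 20. Per 1000 features of at least 1 CPM this gave 7.89 members with suffix 1, 3.44 with suffix 2, 1.71 with suffix 3 and 2.38 with suffix 4. Members with suffix 1 had a median T24 mean of 6.63 CPM and a median T24 over CK ratio of 2.52. These medians were 8.88 CPM and 2.25 for suffix 2, 17.7 CPM and 2.13 for suffix 3 and 9.44 CPM and 1.87 for suffix 4. Among the 15 steadier members 4 carried suffix 1, beside the 26.9% of features of at least 1 CPM. The isoform number in the ID was 1 in 58 members (44.6%), close to the 47.8% of features of at least 1 CPM.

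The suffix moved with the time of the highest level over all features of at least 1 CPM too. Of those with suffix 1, 27.0% had their highest group mean at T24, against 20.5% for suffix 2, 14.2% for suffix 3 and 15.1% for suffix 4, although suffix 1 features had their highest mean at T72 more often still (36.5%). Their median T24 over CK ratio was 1.18, against 1.02, 0.997 and 1.00 for suffixes 2, 3 and 4. Suffix 4 features had the highest mean at T48 most often (33.7%) and suffix 3 features at T72 (40.5%). With another time in the place of T24, the same rule was met by 251 features with a peak in CK (later means set against T24), 105 with a peak at T48 and 255 with a peak at T72. Suffix 4 was the most frequent in the T48 set (39.0%) and suffix 3 in the T72 set (43.1%), while in the CK set suffix 1 was the least frequent (13.9%). The part of the suffix in the choice of members was not tested.

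**Figure D5:**
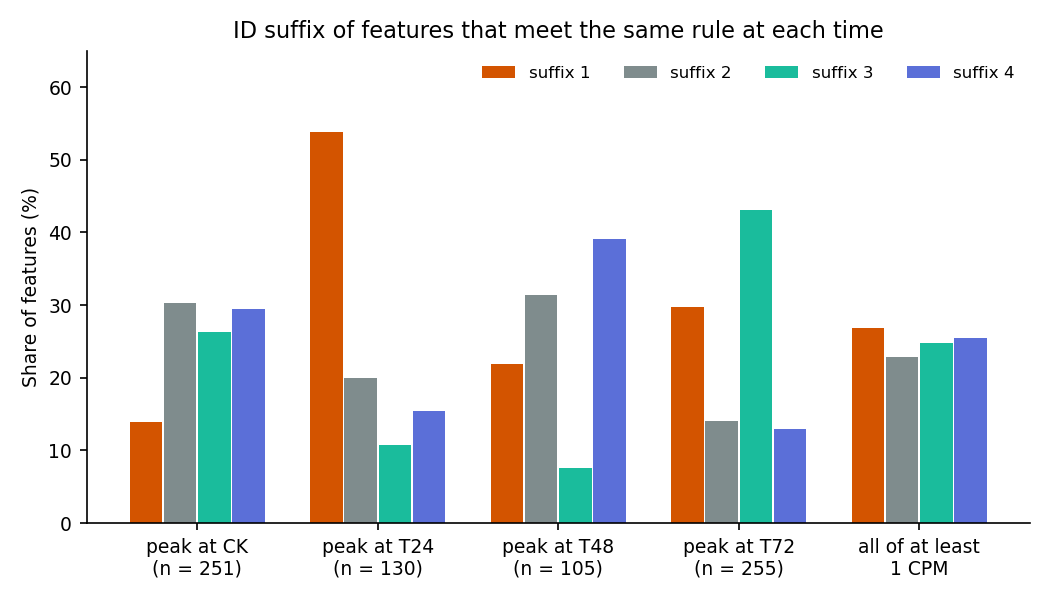
Share in percent (vertical axis) of features with each ID suffix among those that met the rule with the peak at CK, T24, T48 or T72, and among all 33005 features of at least 1 CPM in CK, T48 and T72 (horizontal axis). Suffix 1 makes up 53.8% of the T24 set and 26.9% of all.

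The IDs linked only 2 members to each other. Ranks 60 and 68 shared an assembly cluster and the suffix 3 with different gene numbers within it, and both were among the 15 steadier members. Rank 60 had 3.54, 6.14 and 1.92 CPM in CK, 6.98, 7.86 and 7.94 CPM in T24, 4.52, 2.96 and 3.90 CPM in T48 and 4.39, 4.17 and 3.64 CPM in T72. It was thus far fainter than rank 68. All 130 members had distinct gene IDs, and no 2 features of the table shared a gene ID within a suffix. The gene ID of 74 members recurred under another suffix. If the suffixes mark separate assemblies, which no source used here states, such a recurrence is a coincidence of numbering, so nothing is read from it. Whether members with different IDs come from the same gene cannot be told without sequences, so they may be fewer than 130 separate genes.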

How the data were processed

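RNA of root samples was sequenced as paired reads, per the labels' protocols, and trimmed; the submitters' processing notes name Trimmomatic. The sources used here do not give aligner, counter or assembly settings. The authors deposited estimated counts for features with Trinity-type IDs. All 12 columns were assigned to samples by title, with 0 left over.

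CPM in the text is count over column sum. For the tests, estimated counts were rounded, filtered with filterByExpr (76273 features kept, all members among them) and TMM-scaled. Then 1 edgeR 4.0.16 quasi-likelihood model (R 4.3.3) was fitted to the 12 libraries with a mean per group. Its trial on simulated counts used 1 spread per feature for all groups, unlike these libraries. That trial does not show how the test fares where the spread differs between groups. The alternative tool was DESeq2 1.42.0. The plan assumed estimated counts. Members and lists were chosen with earlier results of these data known. IDs were printed for the first-ranked member and the member highest at 24 h, and ranks 2 to 5 are given by rank. Ranks 9, 16, 32, 39 and 68 were singled out after their values were seen. Lists of named genes could not be applied to assembly IDs.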

Additional observations from a re-analysis of the deposited data

How the results depend on the processing

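Main counts, each with the share of all features called, were 14 (higher, T24 against CK, 2.62%) and 9 (lower, T48 against T24, 1.5%). They were 8 (lower, T72 against T24, 1.03%), 20 (F test, 8.14%) and 4 (all 3 comparisons, 0.834%), and 130 features met the rule. The share of all features called moved too and follows each count. In the same order, without the rule count, DESeq2 gave 38 (5.89%), 38 (4.22%), 44 (3.21%), 57 (19.7%) and 20 (1.36%). The replicate block gave 7 (1.09%), 5 (0.654%), 5 (0.312%), 13 (4.23%) and 3 (0.254%). Only the groups compared gave 28 (6.03%), 23 (4.83%), 61 (6.19%) and, in all 3, 11 (2.36%), with no F test. Averaging the T24 libraries to 1 takes their spread from the other groups and leaves 1 T24 column. Its counts of calls are therefore not given, and nothing is read from them about the members. Lower at T48 and in all 3, library totals alone gave 14 (1.68%) and 7 (0.876%), and the stricter filter (1 CPM in 3 libraries, mean count 10) 14 (2.57%) and 7 (1.35%). No filter gave 13 (4.77%) in the F test.

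Leaving out 1 library gave 0 (0.304% to 0.359%) to 22 (3.6%) for T24 against CK. For T48 against T24 it gave 2 (0.234% to 0.298%) to 15 (1.64%), and for T72 against T24 2 (0.165% to 0.387%) to 11 (1.37%). The F test gave 5 (2.44%) to 31 (10.7%), and all 3 comparisons 0 (0.139% to 0.189%) to 5 (0.698% or 0.722%). Against CK there were 0 at T48 (0.0795% to 3.63%). At T72 there were 0 (1.35% to 6.7%) or, without CK replicate 1 (3.61%) or CK replicate 3 (2.64%), 1. The lowest counts of the first 4 came without a T24 library, for T72 against T24 also without T72 replicate 1. The median log2 change of the members was 0.93 to 1.16, that of TRINITY_DN40975_c0_g1_i5_1 2.53 to 3.23 and that of TRINITY_DN31855_c0_g1_i2_3 0.44 (without CK replicate 3) to 1.04. The causes were not tested.

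The rule was met by 120 to 178 features without 1 library, 120 with TMM-scaled CPM (93 shared with the 130), 50 at a ratio of 2, 43 at a floor of 5 CPM, 58 with a narrower limit on return and 272 without separation of all columns. Same-numbered libraries of different groups had deviations correlated by -0.132 to 0.130 (median 0.00300, against -0.00241 for different numbers), so the numbers were not taken to pair the samples, although 8 of 12 libraries had a higher mean correlation with their own number than with the others.

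Features sharing an assembly gene ID with a member, and sums by that ID, were not run, because a gene ID had 1 feature per suffix. Features of at least 1 CPM with one gene ID under different suffixes had a median correlation of 0.0003 over the 12 libraries (5400 pairs).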

Other observations

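With the floor of 1 CPM set aside, 1846 further features met every other limit of the 24 h rise, each with a CK, T48 or T72 mean under 1 CPM. A further 217 met every limit but the return to control, 319 all but the ratio and 142 all but the separation of every column.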
